A study of Mus musculus with 127 samples.

Results

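Granulocyte precursors of mouse bone marrow that carried high or low surface Ly6g were compared within 1 transcriptional class, Myelo-2. The class names were deposited with the data, and the 58 cells described here are all the Myelo-2 cells of the gates Ly6g high (27 cells, of 46 in that gate) and Ly6g low (31 cells, of 41 in that gate), out of 127 cells in all. Both gates came from wild-type C57BL/6 mice of an age the labels do not give, were CD11b+, and were sorted from a population the labels call GMP-P after enrichment of hindlimb marrow for CD117, the Kit receptor. A gate sorted on CD11b alone, labelled CD11b+ GMP-P, held 14 further Myelo-2 cells, which are set beside the others where it helps. Each cell was captured and lysed on a Fluidigm C1 chip and sequenced as its own library. No animal was named, so each gate counts as 1 sample: no test between the gates was possible, SDs describe the spread over cells, and every difference below lacks a replicate check.

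Neutrophils build their granules in sequence. Myeloblasts and promyelocytes make the primary (azurophil) granule proteins such as the serine proteases Elane and Prtn3 and the peroxidase Mpo, myelocytes and metamyelocytes make the specific granule proteins such as lactoferrin (Ltf) and cathelicidin (Camp), and gelatinase (Mmp9) and chemoattractant receptors follow as the cells leave the cell cycle. Ly6g is a surface protein that appears during this course and is the usual marker of mouse neutrophils. The comparison asks which of these programmes differ between Ly6g high and Ly6g low cells that the deposited classification put into the same class.

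Levels are in TPM, which puts the transcript shares of every cell on one total. A log2 ratio is that of the mean TPM in Ly6g high cells over that in Ly6g low cells, with 1 TPM added to each mean, so that differences between means of about 1 TPM come out too small. Genes that reached 1 TPM in 25% or more of the cells of one gate or the other, 3911 in all, are called measured. A gene can pass this filter through 1 gate alone, so counts past 2-fold and list medians depend in part on the filter. It was applied anew wherever the cells, the scaling or the detection level were changed, so list medians there can cover other members. Shares of cells have exact (Clopper-Pearson) 95% intervals, which cover counting error only. Of the measured genes, 511 (13.1%) were at least 2-fold higher and 776 (19.8%) at least 2-fold lower in Ly6g high cells, and the median log2 ratio was -0.13. A stricter rule, which also asked for a mean of 10 TPM, a difference of at least 1 in mean log2(TPM + 1) and a ratio that stayed past 2-fold without the highest cell of each gate, was met by 88 genes (2.25%) that were higher and 431 (11%) that were lower. Over all cells of the class the lower side was the longer one under both rules, but the cells differed in the number of genes detected. Ly6g high cells held a median of 2030 genes at 1 TPM or more (1359 to 2790), against 2282 (1370 to 4503) in Ly6g low cells. The median measured gene reached 10 TPM in 22.2% of Ly6g high cells and in 29% of Ly6g low cells. In the 23 Ly6g high and 25 Ly6g low cells with 1500 to 3000 genes, 3622 genes passed the filter. Of these, 664 were at least 2-fold higher and 585 lower, and their median log2 ratio was 0.03. The stricter rule was met there by 216 higher and 298 lower genes. Without the 5 Ly6g low cells that held over 3000 genes, 583 of 3543 measured genes were at least 2-fold higher and 580 lower. By the stricter rule these counts were 154 and 296. The excess of lower genes at 2-fold thus was not seen among cells with 1500 to 3000 genes or without the 5 cells. Under the stricter rule the excess was smaller. The band did not match the gates in gene number, with medians of 2092 genes in Ly6g high cells and 2267 in Ly6g low cells. The cell names end in codes that read as capture positions, and 18 of them recur between the gates (7 among the Myelo-2 cells). No plate or chip is named in the labels. If the codes are positions, the gates were captured apart, and gate and capture cannot be told apart.

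Both gates held neutrophil transcripts at high levels. Camp had lowest 43483, median 64464 and highest 102972 TPM in Ly6g high cells, against lowest 20283, median 62715 and highest 110752 TPM in Ly6g low cells, and every cell of both gates held it. Csf1r and Irf8, which mark monocytes, averaged 0.00667 and 0.00407 TPM in Ly6g high cells and 0 and 0 TPM in Ly6g low cells. Of 20 monocyte genes only 3 were measured, and their list summed to a median of 232 TPM (0.24 to 1720 TPM) in Ly6g high cells and 96.4 TPM (0 to 1258 TPM) in Ly6g low cells. At 0 in every cell were 8 of the 20 in Ly6g high and 10 in Ly6g low cells, and galectin 3 (Lgals3) averaged 273 TPM in the first gate, against 143 TPM in the second. None of the measured genes belonged to the dendritic, B cell, T and NK cell, erythroid, megakaryocyte or macrophage lists, whose summed median stood at 0.11 TPM or less in both gates. The lists of eosinophil genes and of basophil and mast cell genes had 1 measured gene each. A few cells stood apart from this. Cells 8 and 10 of the Ly6g low gate correlated at 0.884 over all genes, where the next closest of all pairs reached 0.636 and the median pair 0.495. Both held transcripts of other lineages, with 386.87 TPM of Gata1 and 922.62 TPM of Gata2 in cell 10 and 14.58 and 37.77 TPM in cell 8. Ly6g high cell 82 held 920.25 TPM of C1qb, a macrophage gene, and gave the macrophage list its highest sum of 3739 TPM. These cells belonged to the deposited class and were kept, and results that turn on them are also given without them.

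The gate genes themselves are a check of the sort, not a finding. Ly6g had lowest 0, median 255 and highest 5384 TPM in Ly6g high cells, against lowest 0, median 2.70 and highest 2336 TPM in Ly6g low cells. The ranges overlapped widely: 18 of 27 Ly6g high cells and 13 of 31 Ly6g low cells reached 10 TPM, and the means were 842 TPM in Ly6g high cells, against 446 TPM in Ly6g low cells (log2 ratio 0.91). Itgam, which encodes CD11b, averaged 192 TPM in Ly6g high cells, against 127 TPM in Ly6g low cells (log2 ratio 0.59). In the CD11b+ gate Ly6g averaged 96.5 TPM and reached 10 TPM in 4 of 14 Myelo-2 cells. Ly6g has near-identical neighbours in its gene family, and how the authors' counting divided reads among them is not given in the sources used here.

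**Figure D1:**
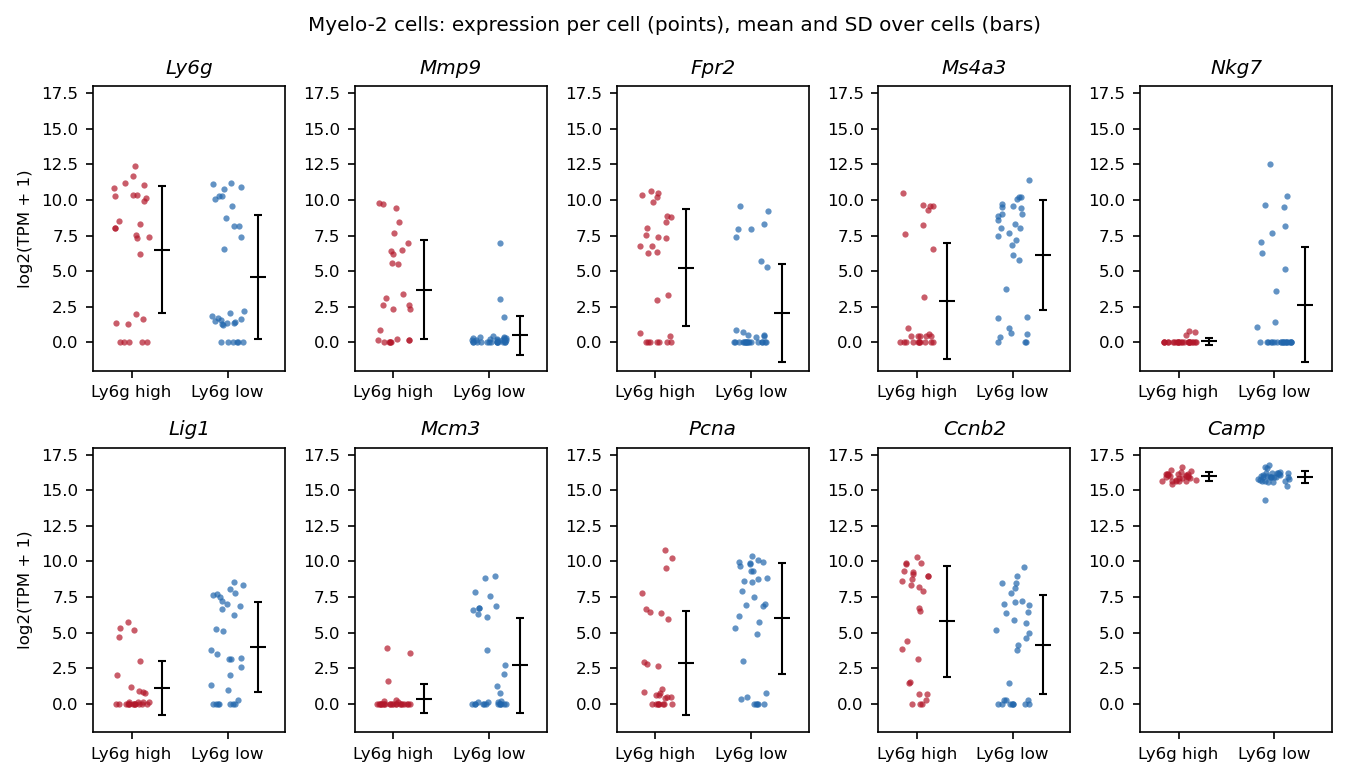
Expression of genes that mark the steps of neutrophil maturation, as log2(TPM + 1) per cell (vertical axis) in Myelo-2 cells of the Ly6g high gate (27 cells, left) and the Ly6g low gate (31 cells, right); each point is 1 cell, and the marks show the mean and SD over cells. Camp lies at the same height in both gates, Mmp9 has more cells above 0 in the Ly6g high gate, and Ms4a3, Nkg7 and Lig1 have more in the Ly6g low gate.

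Transcripts of the primary granule and of the genes made with it were lower in Ly6g high cells. Of 15 genes in this list, 9 were measured. Of these, 7 were at least 2-fold lower (77.8%, beside 19.8% of all measured genes) and none was 2-fold higher (beside 13.1%). The median log2 ratio was -1.80, beside -0.13 over all measured genes. Nkg7 and Srgn passed the filter only through the Ly6g low gate, so they could count only as lower. Ms4a3, a membrane protein of granulocyte and monocyte progenitors, had lowest 0, median 0.360 and highest 1429.7 TPM in Ly6g high cells, against lowest 0, median 199.6 and highest 2663 TPM in Ly6g low cells. Ms4a3 was at 10 TPM or more in 8 of 27 Ly6g high cells (29.6%, 95% interval 13.8 to 50.2%) and in 22 of 31 Ly6g low cells (71%, 95% interval 52 to 85.8%), with a log2 ratio of -1.14. It was below 1 TPM in the larger part of the Ly6g high cells, and the gates overlapped among the cells that held it. Its mean log2(TPM + 1) was 2.89 ± 4.06 in Ly6g high cells and 6.16 ± 3.86 in Ly6g low cells (SD over cells).

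Nkg7, a granule membrane protein best known from cytotoxic lymphocytes, did not exceed 0.740 TPM in any Ly6g high cell, while 10 of 31 Ly6g low cells held 10 TPM or more, up to 5794 TPM. The count of 0 among 27 Ly6g high cells at 10 TPM allows a share of up to 12.8%. Serglycin (Srgn), the proteoglycan core on which granule proteases are stored, averaged 0.196 TPM in Ly6g high cells, against 185 TPM in Ly6g low cells. Srgn reached 10 TPM in 0 of 27 Ly6g high cells, against 5 of 31 Ly6g low cells. Ly6g low cells 36 and 10 held 2710.91 and 2579.58 TPM of it, and its log2 ratio of -7.28 was -6.47 without cells 8 and 10, and -3.55 without the 5 Ly6g low cells over 3000 genes. Elane, neutrophil elastase, averaged 1.02 TPM in Ly6g high cells, against 711 TPM in Ly6g low cells. Few cells carried that mean: Elane reached 10 TPM in 0 of 27 Ly6g high cells, against 4 of 31 Ly6g low cells, and Ly6g low cell 36 alone gave 69.5% of the Ly6g low sum. Proteinase 3 (Prtn3) averaged 1.57 TPM in Ly6g high cells, against 132 TPM in Ly6g low cells, and it reached 10 TPM in 1 of 27 Ly6g high cells, against 5 of 31 Ly6g low cells. Mpo and cathepsin G (Ctsg) fell below the filter, with means of 0.556 and 0.0130 TPM in Ly6g high cells, against 46 and 4.89 TPM in Ly6g low cells.

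Ly6g low cells 28, 30 and 36, which led Elane, had over 3000 genes each, as had cells 8 and 10. Without these 5 cells the list median was -0.66 and the Elane log2 ratio -0.17, while Ms4a3 stood at -0.66 and Nkg7 at -5.91. The filter was applied anew here and in the next set of cells. These list medians therefore do not cover the same members as the median over all cells of the class, and a change in them is partly one of membership. Among cells with 1500 to 3000 genes the list median was -0.82, Elane was at -0.32, Mpo was at 0.20, and Ms4a3 and Nkg7 were at -1.33 and -5.95. Prtn3 stood at -2.15 without the 5 cells and at -2.10 in that band, beside -5.70 over all cells of the class. Elane and Mpo were within 2-fold in both cases. Prtn3 and Nkg7 remained more than 2-fold lower in Ly6g high cells without the 5 cells, by less than over all cells, and Ms4a3 was under 2-fold lower there but more than 2-fold lower in the band.

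The promoters of Elane, which no Ly6g high cell held at 10 TPM, and of Ly6g are shown because both hold the letters GAGGAAGT (in capitals), a match to the binding element of the myeloid factor PU.1. They are from RefSeq (GRCm38.p6, 250 bases before to 50 after the start). They lie at chr10:79886062-79886361 on the plus strand for Elane, with the match starting 85 bases before the start, and at chr15:75155011-75155310 on the plus strand for Ly6g, whose other listed promoter is not shown and where the match starts 31 bases before the start.
Elane: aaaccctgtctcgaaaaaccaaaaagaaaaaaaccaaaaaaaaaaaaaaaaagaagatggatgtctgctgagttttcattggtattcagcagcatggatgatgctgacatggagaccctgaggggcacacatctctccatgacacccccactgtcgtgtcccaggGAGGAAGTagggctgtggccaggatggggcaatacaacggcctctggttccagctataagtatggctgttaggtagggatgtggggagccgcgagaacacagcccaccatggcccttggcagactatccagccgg
Ly6g: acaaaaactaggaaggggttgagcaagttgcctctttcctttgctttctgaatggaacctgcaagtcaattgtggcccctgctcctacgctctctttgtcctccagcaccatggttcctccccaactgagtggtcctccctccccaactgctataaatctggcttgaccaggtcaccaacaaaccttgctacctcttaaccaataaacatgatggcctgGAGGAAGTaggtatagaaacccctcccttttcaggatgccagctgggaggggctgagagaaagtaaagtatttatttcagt
On either strand these letters occurred in 4 of 15 promoters of primary granule genes (26.7%), in 3 of 21 of specific granule genes (14.3%) and in 3.20% of all 32851 promoters of the table. A match is a description of the sequence, not a bound site.

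Specific granule transcripts, by contrast, stood at nearly the same level in both gates. Of 22 measured genes none was 2-fold higher (beside 13.1% of all measured genes). Only 1, the peroxisomal transporter Abcd2 (log2 ratio -1.73), was 2-fold lower (4.55%, beside 19.8%). The median log2 ratio was 0.10. Lactoferrin (Ltf) had lowest 2236, median 11287 and highest 22502 TPM in Ly6g high cells, against lowest 116, median 9106 and highest 19529.6 TPM in Ly6g low cells (log2 ratio 0.19). Lipocalin 2 (Lcn2), which binds bacterial siderophores, averaged 16000 TPM in Ly6g high cells, against 15614 TPM in Ly6g low cells. The cystatin-like granule protein Ngp averaged 109448 TPM in Ly6g high cells, against 118193 TPM in Ly6g low cells. The ranges of Ltf overlapped over most of their extent, with the lowest cells in the Ly6g low gate and the highest in the Ly6g high gate. Ficolin B (Fcnb), a lectin of immature granulocytes, was lower in Ly6g high cells, with lowest 0.650, median 777 and highest 8165 TPM in Ly6g high cells, against lowest 2.99, median 2373 and highest 6349 TPM in Ly6g low cells (log2 ratio -0.84). The calprotectin genes were also close, with means of 148223 and 185090 TPM for S100a8 and S100a9 in Ly6g high cells and 151510 and 156137 TPM in Ly6g low cells, and none of 6 measured S100 list genes differed 2-fold. The 8 genes of the NADPH oxidase, which makes superoxide in phagocytes, had a median log2 ratio of 0.01 and none past 2-fold. Ly6c2, of the same gene family as Ly6g, averaged 1428 TPM in Ly6g high cells, against 2077 TPM in Ly6g low cells.

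Genes of the later neutrophil differed in a few members. Of 30 list genes 11 were measured. In Ly6g high cells 5 were at least 2-fold higher (45.5%, beside 13.1% of all measured genes) and none lower (beside 19.8%). The median log2 ratio was 0.98, and -0.20 when genes below the filter were added. Mmp9 passed the filter only through the Ly6g high gate. Below the filter, Mmp25 (-1.37), Stfa2l1 (-2.21) and BC100530 (-4.77) were more than 2-fold lower and Trem1 (2.18) more than 2-fold higher. The absence of lower genes thus depends on the filter. The median difference of mean log2(TPM + 1) was 0.08. Mmp9, gelatinase B, had lowest 0, median 5.09 and highest 879 TPM in Ly6g high cells, against lowest 0, median 0.110 and highest 127 TPM in Ly6g low cells. It reached 10 TPM in 11 of 27 Ly6g high cells (40.7%, 95% interval 22.4 to 61.2%) and in 1 of 31 Ly6g low cells (3.23%, 95% interval 0.0816 to 16.7%), and the means of 128 TPM in Ly6g high cells, against 4.50 TPM in Ly6g low cells gave a log2 ratio of 4.55. A single Ly6g low cell, number 17, supplied 91% of the Ly6g low sum. Fpr2, a receptor for formylated peptides that guides neutrophils to bacteria, had lowest 0, median 106 and highest 1615 TPM in Ly6g high cells, against lowest 0, median 0 and highest 772 TPM in Ly6g low cells (log2 ratio 2.07). Fpr2 was at 10 TPM in 16 of 27 Ly6g high cells, against 8 of 31 Ly6g low cells. These were the leading 2 genes of the ranking by mean log2(TPM + 1), at differences of 3.21 and 3.15. Padi4, the enzyme that citrullinates histones, averaged 86.5 TPM in Ly6g high cells, against 36.8 TPM in Ly6g low cells, and reached 10 TPM in 19 of 27 Ly6g high cells, against 10 of 31 Ly6g low cells. The resistin-like gene Retnlg averaged 263 TPM in Ly6g high cells, against 127 TPM in Ly6g low cells, and reached 10 TPM in 11 of 27 Ly6g high cells, against 12 of 31 Ly6g low cells.

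Some other late genes were not higher. Mmp8, the neutrophil collagenase, averaged 0.125 TPM in Ly6g high cells, against 1.13 TPM in Ly6g low cells, and the chemokine receptor Cxcr2 12.9 TPM in Ly6g high cells, against 19.6 TPM in Ly6g low cells (log2 ratio -0.57). In the Ly6g high gate, 13 cells of the class Myelo-4 held a mean of 2277 TPM of Mmp8, 11124 TPM of Retnlg and 911 TPM of Mmp9, against 0.125, 263 and 128 TPM in the 27 Myelo-2 cells. How the classes were assigned is not given, so that contrast is a description only. Among the 27 Myelo-2 cells of the Ly6g high gate, 14 held both Mmp9 and Fpr2 at 1 TPM, 3 Mmp9 only, 4 Fpr2 only and 6 neither, and none held Mmp8 at 1 TPM.

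Mmp9 and Ms4a3 were also counted cell by cell. At 1 TPM, 4 Ly6g high cells held both, 13 held Mmp9 only, 6 Ms4a3 only and 4 neither. Among Ly6g low cells 2 held both, 1 Mmp9 only, 23 Ms4a3 only and 5 neither. In the CD11b+ gate Ms4a3 was at 1 TPM in 14 of 14 Myelo-2 cells and Mmp9 in 1. Detection per cell is incomplete at this depth, so a transcript listed at 0 in a cell may have been missed.

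Genes of DNA replication were lower in Ly6g high cells. Of 49 list genes 38 were measured. Of these, 18 were at least 2-fold lower (47.4%, beside 19.8% of all measured genes) and none 2-fold higher (beside 13.1%). The median log2 ratio was -0.90. All 38 had the lower mean log2(TPM + 1) in Ly6g high cells (2783 of the 3911 measured genes did). Lig1, the ligase that joins Okazaki fragments, had lowest 0, median 0.110 and highest 54 TPM in Ly6g high cells, against lowest 0, median 10.6 and highest 373 TPM in Ly6g low cells. Lig1 was at 10 TPM in 4 of 27 Ly6g high cells (14.8%, 95% interval 4.19 to 33.7%) and in 16 of 31 Ly6g low cells (51.6%, 95% interval 33.1 to 69.8%), with a log2 ratio of -3.49. Pcna, the sliding clamp of the replication fork, had lowest 0, median 0.680 and highest 1806 TPM in Ly6g high cells, against lowest 0, median 126 and highest 1331 TPM in Ly6g low cells (log2 ratio -1.14). Pcna was at 10 TPM in 8 of 27 Ly6g high cells, against 22 of 31 Ly6g low cells. The ranges of both genes overlapped between the gates.

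Of the 6 subunits of the replicative helicase, 4 were at least 2-fold lower. Mcm3 reached 10 TPM in 2 of 27 Ly6g high cells, against 11 of 31 Ly6g low cells, and averaged 1.02 TPM in Ly6g high cells, against 64.2 TPM in Ly6g low cells (log2 ratio -5.01). Mcm6 averaged 13.1 TPM in Ly6g high cells, against 71.9 TPM in Ly6g low cells. Mcm7 averaged 21.2 TPM in Ly6g high cells, against 82.2 TPM in Ly6g low cells, and Mcm5 18.6 TPM in Ly6g high cells, against 65.9 TPM in Ly6g low cells. Mcm2 leaned the other way, averaging 9.33 TPM in Ly6g high cells, against 7.42 TPM in Ly6g low cells (log2 ratio 0.30), with 2 Ly6g high cells at 10 TPM, against 5 Ly6g low cells. The catalytic subunit of the polymerase that starts each strand, Pola1, averaged 0.729 TPM in Ly6g high cells, against 26.7 TPM in Ly6g low cells, and reached 10 TPM in 1 of 27 Ly6g high cells, against 7 of 31 Ly6g low cells. Among regulators of chromatin copied at the fork, Uhrf1, which recruits the maintenance DNA methyltransferase, reached 10 TPM in 8 of 27 Ly6g high cells, against 20 of 31 Ly6g low cells. The chromatin helicase Hells did so in 3 of 27 Ly6g high cells, against 11 of 31 Ly6g low cells. Rrm2, the ribonucleotide reductase subunit that supplies deoxynucleotides, averaged 397 TPM in Ly6g high cells, against 736 TPM in Ly6g low cells. Mcm4 and the flap endonuclease Fen1 had log2 ratios of -0.05 and 0.71, with 7 and 4 Ly6g high cells at 10 TPM, against 12 and 10 Ly6g low cells. Over the list, the median gene was at 10 TPM in 18.5% of Ly6g high cells and in 37.1% of Ly6g low cells. The share was lower in Ly6g high cells for 35 of 38 genes, beside 69.1% of all measured genes. The list median was -0.75 among cells with 1500 to 3000 genes and -0.95 without the 5 Ly6g low cells over 3000 genes.

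Genes of mitosis showed no such shift. All 45 were measured. In Ly6g high cells 10 were at least 2-fold higher (22.2%, beside 13.1% of all measured genes). Another 3 were at least 2-fold lower (6.67%, beside 19.8%). The median log2 ratio was 0.42. It was 0.47 after rescaling without the granule and S100 genes, and -0.31 over all cells of both gates, which include other classes. Ccnb2, the B-type cyclin of mitotic entry, had lowest 0, median 248 and highest 1259 TPM in Ly6g high cells, against lowest 0, median 30 and highest 787 TPM in Ly6g low cells (log2 ratio 1.55). Cenpa, the histone H3 variant of centromeres, had lowest 0, median 96.2 and highest 1166 TPM in Ly6g high cells, against lowest 0, median 0.260 and highest 884 TPM in Ly6g low cells (log2 ratio 1.21). Both ranges overlapped between gates. Without the 5 Ly6g low cells over 3000 genes the Cenpa log2 ratio was 2.07. Racgap1, which organises the central spindle at cytokinesis, reached 10 TPM in 15 of 27 Ly6g high cells, against 12 of 31 Ly6g low cells. Kinetochore genes Nuf2 and Cenpe averaged 132 and 52.3 TPM in Ly6g high cells, against 38.3 and 15.5 TPM in Ly6g low cells. The mitotic kinase Plk1 averaged 120.3 TPM in Ly6g high cells, against 55 TPM in Ly6g low cells. The 3 lower genes were the checkpoint kinase Ttk (-1.17), the kinetochore protein Ndc80 (-1.09) and the condensin subunit Ncapd2 (-1.06). Mki67, the proliferation antigen, averaged 107 TPM in Ly6g high cells, against 83 TPM in Ly6g low cells, and was at 10 TPM in 21 of 27 Ly6g high cells, against 23 of 31 Ly6g low cells. Top2a, which untangles sister chromatids, averaged 231 TPM in Ly6g high cells, against 183 TPM in Ly6g low cells. The median gene of the list was at 10 TPM in 51.9% of Ly6g high cells and in 45.2% of Ly6g low cells, whereas over all measured genes 28.9% had the higher share in Ly6g high cells and 69.1% the lower.

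Promoters of 2 replication genes and 2 mitosis genes are shown because these 2 lists differ in the letters near their starts. Capitals mark, in Lig1 and Mcm3, the E2F element (TTTGGCGC or TTTCGCGC, here on the minus strand in Lig1), and in Ccnb2 and Cenpa the cell cycle homology element CHR (TTTGAA). The windows are from RefSeq (GRCm38.p6), at chr7:13278576-13278875 on the plus strand for Lig1 (1 of 3 listed promoters), chr1:20820263-20820562 on the minus strand for Mcm3, chr9:70421505-70421804 on the minus strand for Ccnb2 and chr5:30666636-30666935 on the plus strand for Cenpa.
Lig1: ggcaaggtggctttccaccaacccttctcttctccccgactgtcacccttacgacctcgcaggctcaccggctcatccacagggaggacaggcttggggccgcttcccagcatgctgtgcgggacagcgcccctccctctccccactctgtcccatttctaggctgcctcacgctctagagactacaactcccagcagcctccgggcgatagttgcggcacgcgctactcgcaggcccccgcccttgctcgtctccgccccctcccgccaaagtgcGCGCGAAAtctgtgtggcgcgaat
Mcm3: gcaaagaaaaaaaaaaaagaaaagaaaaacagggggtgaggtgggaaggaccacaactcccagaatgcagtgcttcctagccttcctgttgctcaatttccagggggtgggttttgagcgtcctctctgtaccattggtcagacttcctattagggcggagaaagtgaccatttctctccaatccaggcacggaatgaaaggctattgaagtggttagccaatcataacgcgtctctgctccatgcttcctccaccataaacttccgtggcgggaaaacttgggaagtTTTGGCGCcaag
Ccnb2: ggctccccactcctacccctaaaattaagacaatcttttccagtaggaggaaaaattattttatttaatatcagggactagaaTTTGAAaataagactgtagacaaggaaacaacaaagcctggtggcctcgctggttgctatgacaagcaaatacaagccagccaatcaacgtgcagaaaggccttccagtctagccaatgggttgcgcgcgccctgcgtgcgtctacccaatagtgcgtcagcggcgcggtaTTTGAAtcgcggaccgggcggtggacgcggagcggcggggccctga
Cenpa: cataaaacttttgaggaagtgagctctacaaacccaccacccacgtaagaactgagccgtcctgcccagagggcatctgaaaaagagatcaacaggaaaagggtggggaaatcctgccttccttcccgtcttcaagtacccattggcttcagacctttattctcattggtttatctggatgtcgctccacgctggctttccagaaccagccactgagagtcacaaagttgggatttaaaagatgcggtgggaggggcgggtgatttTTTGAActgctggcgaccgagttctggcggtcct
Counted on either strand, the E2F letters occurred in 11 of 48 promoters of replication genes (22.9%), in 2 of 42 of mitosis genes (4.76%) and in 0.813% of all promoters of the table. CHR letters occurred in 6 of 48 (12.5%), 33 of 42 (78.6%) and 17.9%, and the CCAAT box in 58.3%, 81% and 37.4%. None of these motifs contains another. They were matched to 40 replication and 39 mitosis genes, and a match is no evidence that a factor acts there in these cells.

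**Figure D2:**
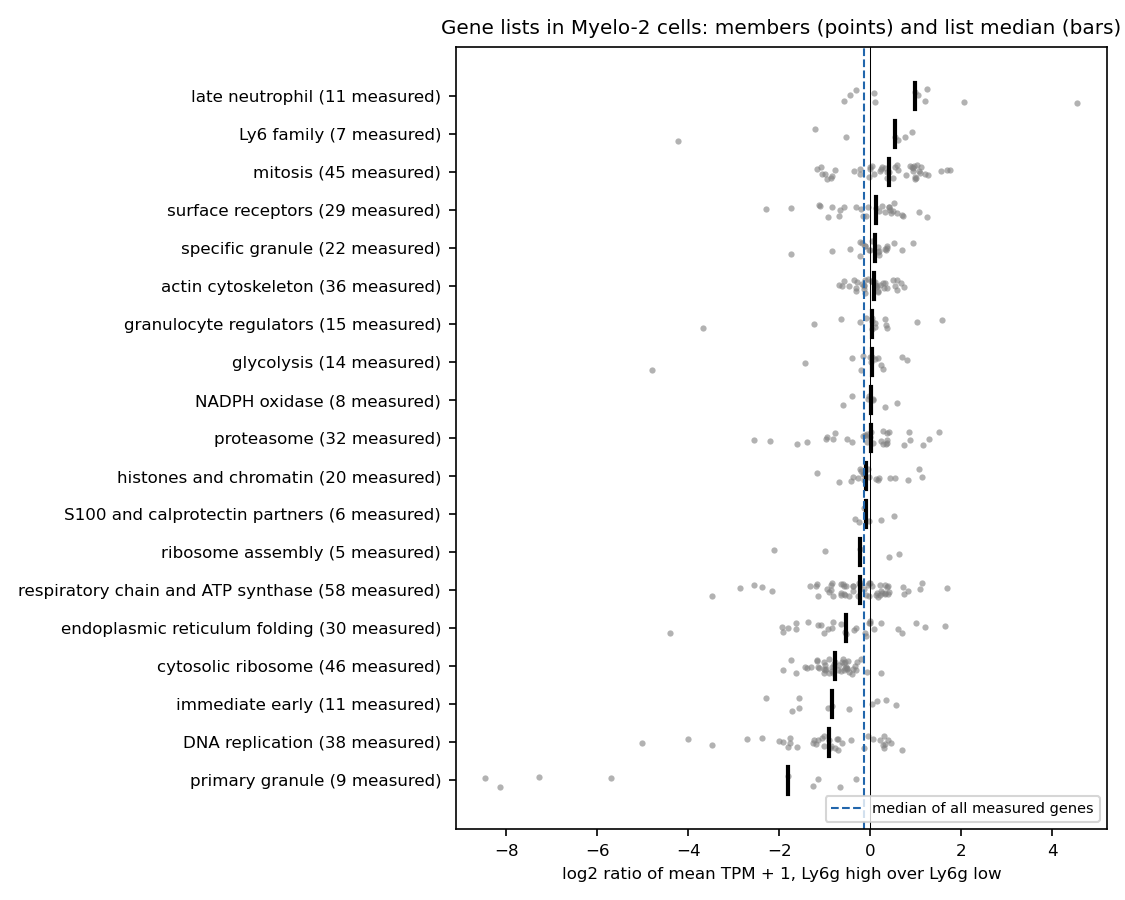
Log2 ratio of mean TPM, Ly6g high over Ly6g low Myelo-2 cells (horizontal axis), for the measured genes of each list (rows); each point is 1 gene and the bar is the list's median, beside the median over all measured genes (dashed line). The DNA replication, primary granule and cytosolic ribosome lists lie to the left of that median, the mitosis list to its right and the specific granule list near 0.

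Cell by cell, more Ly6g high cells held mitosis genes with few replication genes. The threshold of 10 genes at 1 TPM or more was chosen after the values were seen. At least 10 of the 45 mitosis genes were present in 23 of 27 Ly6g high cells and in 25 of 31 Ly6g low cells. Of all cells, 9 of 27 Ly6g high (33.3%, 95% interval 16.5 to 54%) and 1 of 31 Ly6g low cells (3.23%, 0.0816 to 16.7%) held 10 or more mitosis genes but fewer than 10 replication genes. Within the cells that had 10 or more mitosis genes, the median number of replication genes was 16 (1 to 29) in Ly6g high and 25 (7 to 42) in Ly6g low cells, and the median number of mitosis genes 31 in Ly6g high cells and 33 in Ly6g low cells. The count was 7 Ly6g high cells and 0 Ly6g low cells at a threshold of 5 genes, and 10 Ly6g high cells and 4 Ly6g low cells at a threshold of 15. Few cells lay at the line: 0 Ly6g high and 1 Ly6g low of those cells held 8 to 12 replication genes. The 9 Ly6g high cells had 1432 to 2245 genes detected, against the gate's median of 2030, and within 1500 to 3000 genes the count was 7 of 23 Ly6g high cells and 1 of 25 Ly6g low cells. In the CD11b+ gate 1 of 14 Myelo-2 cells had this combination.

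**Figure D3:**
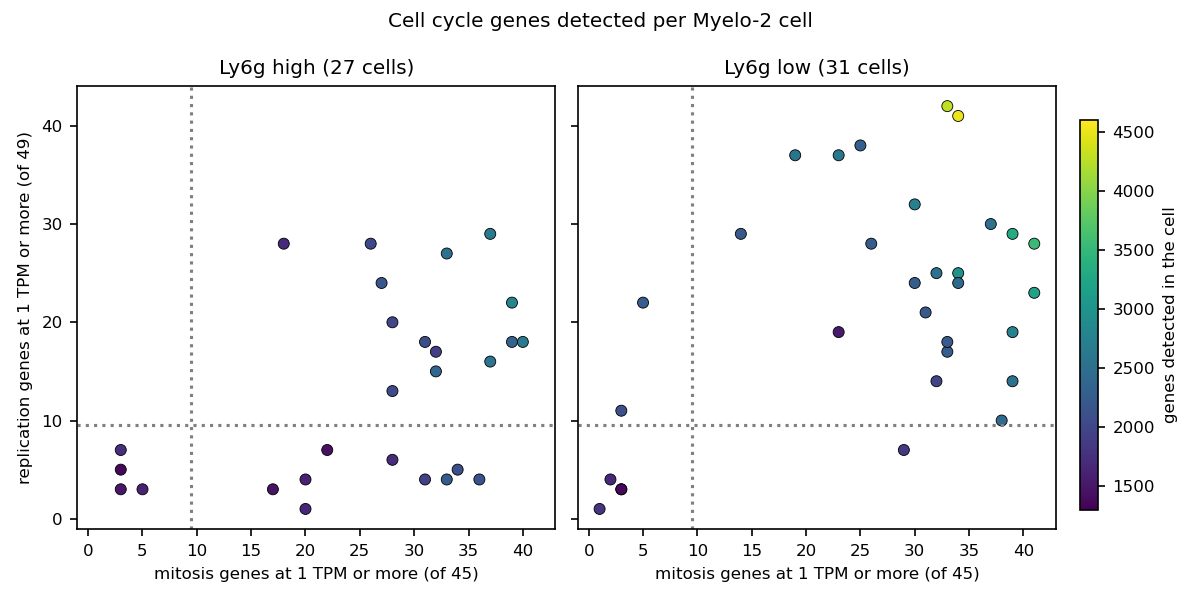
Number of mitosis genes (horizontal axis, of 45) and of DNA replication genes (vertical axis, of 49) at 1 TPM or more in each Myelo-2 cell, with Ly6g high cells in the left panel and Ly6g low cells in the right; colour gives the genes detected in the cell and dotted lines the threshold of 10 genes. The Ly6g high gate has 9 cells with at least 10 mitosis but under 10 replication genes, and the Ly6g low gate has 1.

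Over all cells of the class, ribosomal protein transcripts were lower in Ly6g high cells across the list. Of 46 measured cytosolic ribosome genes 14 were at least 2-fold lower (30.4%, beside 19.8% of all measured genes) and none 2-fold higher (beside 13.1%). The median log2 ratio was -0.79. Rpl3 had lowest 0, median 1.24 and highest 651 TPM in Ly6g high cells, against lowest 0, median 502 and highest 4373 TPM in Ly6g low cells (log2 ratio -1.91), and Rpl10 averaged 136 TPM in Ly6g high cells, against 453 TPM in Ly6g low cells. Rps16 differed little, at 445 TPM in Ly6g high cells, against 376 TPM in Ly6g low cells. Ly6g low cell 10 held 123637 TPM of these transcripts, and the next highest cell 40740 TPM. Without cells 8 and 10 the list median was -0.46 (beside -0.05 over all measured genes), and among cells with 1500 to 3000 genes it was -0.29 (beside 0.03). Members lay on both sides of 0 in that band, with Rpl12 at 0.99 and Rps28 at 0.36, and Rpl3 at -1.11 and Rpl10 at -1.09. Ribosomal protein genes have many processed copies, which makes their single values uncertain.

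Genes that fold and modify secreted proteins in the endoplasmic reticulum were lower as well. Of 30 measured genes 10 were at least 2-fold lower (33.3%, beside 19.8% of all measured genes) and 2 higher (6.67%, beside 13.1%). The median log2 ratio was -0.54 (-0.52 among cells with 1500 to 3000 genes). Calreticulin (Calr), a calcium-binding chaperone also counted with the primary granule list, reached 10 TPM in 3 of 27 Ly6g high cells, against 16 of 31 Ly6g low cells. Its partner disulfide isomerase Pdia3 did so in 12 of 27 Ly6g high cells, against 23 of 31 Ly6g low cells. Xbp1, the transcription factor of the unfolded protein response, did so in 5 of 27 Ly6g high cells, against 13 of 31 Ly6g low cells. Txndc12 and Ddost, a thioredoxin-like protein and an oligosaccharyltransferase subunit, had log2 ratios of -4.40 (-3.71 without cells 8 and 10) and -1.94, while Creld2 (1.63) and Ostc (1.20) leaned the other way. Krtcap2, another oligosaccharyltransferase subunit, was at 10 TPM in 5 of 27 Ly6g high cells, against 19 of 31 Ly6g low cells. Other genes on the lower side of the ranking were Cope, Vps28 and Rab7. Cope, a subunit of the COPI vesicle coat, was at 10 TPM in 10 of 27 Ly6g high cells, against 21 of 31 Ly6g low cells. Vps28 of the endosomal sorting complex reached 10 TPM in 10 of 27 Ly6g high cells, against 23 of 31 Ly6g low cells. The late endosome GTPase Rab7 reached it in 11 of 27 Ly6g high cells, against 22 of 31 Ly6g low cells.

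Respiratory genes passed 2-fold no more often than other genes. Of 58 measured genes of the respiratory chain and ATP synthase 9 were at least 2-fold lower (15.5%, beside 19.8% of all measured genes) and 3 at least 2-fold higher (5.17%, beside 13.1%), and the median log2 ratio was -0.23. Atp5g3, which encodes the c ring of ATP synthase, headed the lower genes of the whole ranking. It had lowest 0, median 0 and highest 354 TPM in Ly6g high cells, against lowest 0, median 108 and highest 1165 TPM in Ly6g low cells, and reached 10 TPM in 6 of 27 Ly6g high cells, against 25 of 31 Ly6g low cells (log2 ratio -2.55). The complex I subunit Ndufc1 reached 10 TPM in 11 of 27 Ly6g high cells, against 25 of 31 Ly6g low cells (log2 ratio -1.20). Another, Ndufb5, did so in 17 of 27 Ly6g high cells, against 12 of 31 Ly6g low cells (log2 ratio 1.69). Cytochrome c1 (Cyc1) averaged 78.1 TPM in Ly6g high cells, against 35 TPM in Ly6g low cells. Smdt1, a subunit of the mitochondrial calcium uniporter, was at 10 TPM in 14 of 27 Ly6g high cells, against 27 of 31 Ly6g low cells. The enzyme Gpx4, which reduces lipid peroxides, was so in 17 of 27 Ly6g high cells, against 30 of 31 Ly6g low cells.

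The remaining genes named by the ranking had varied roles. On the higher side, Zyx (zyxin, an adhesion and actin protein) had lowest 0.320, median 224 and highest 1075 TPM in Ly6g high cells, against lowest 0, median 38.4 and highest 477 TPM in Ly6g low cells (log2 ratio 1.47). Notch2, the receptor, reached 10 TPM in 21 of 27 Ly6g high cells, against 10 of 31 Ly6g low cells, and averaged 30.6 TPM in Ly6g high cells, against 11.4 TPM in Ly6g low cells. The clathrin adaptor Ap2s1 averaged 183 TPM in Ly6g high cells, against 50.6 TPM in Ly6g low cells. Ncoa4, which delivers ferritin for breakdown, averaged 106 TPM in Ly6g high cells, against 44.6 TPM in Ly6g low cells. The interferon-induced membrane protein Ifitm3 averaged 1019.5 TPM in Ly6g high cells, against 504 TPM in Ly6g low cells. Mapkapk3, a stress kinase, had a log2 ratio of 2.86, but -0.31 over all cells of both gates. Polr3c, of RNA polymerase III, and the splicing helicase Ddx46 were in 8 and 11 Ly6g high cells at 10 TPM, against 1 and 2 Ly6g low cells. On the lower side stood the splicing factors Srsf7 and Tra2b, at 10 TPM in 10 and 14 Ly6g high cells, against 23 and 24 Ly6g low cells. Cep57, a centrosome protein, and the membrane protein Tmem50b were at 10 TPM in 4 and 3 Ly6g high cells, against 15 and 17 Ly6g low cells.

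**Figure D4:**
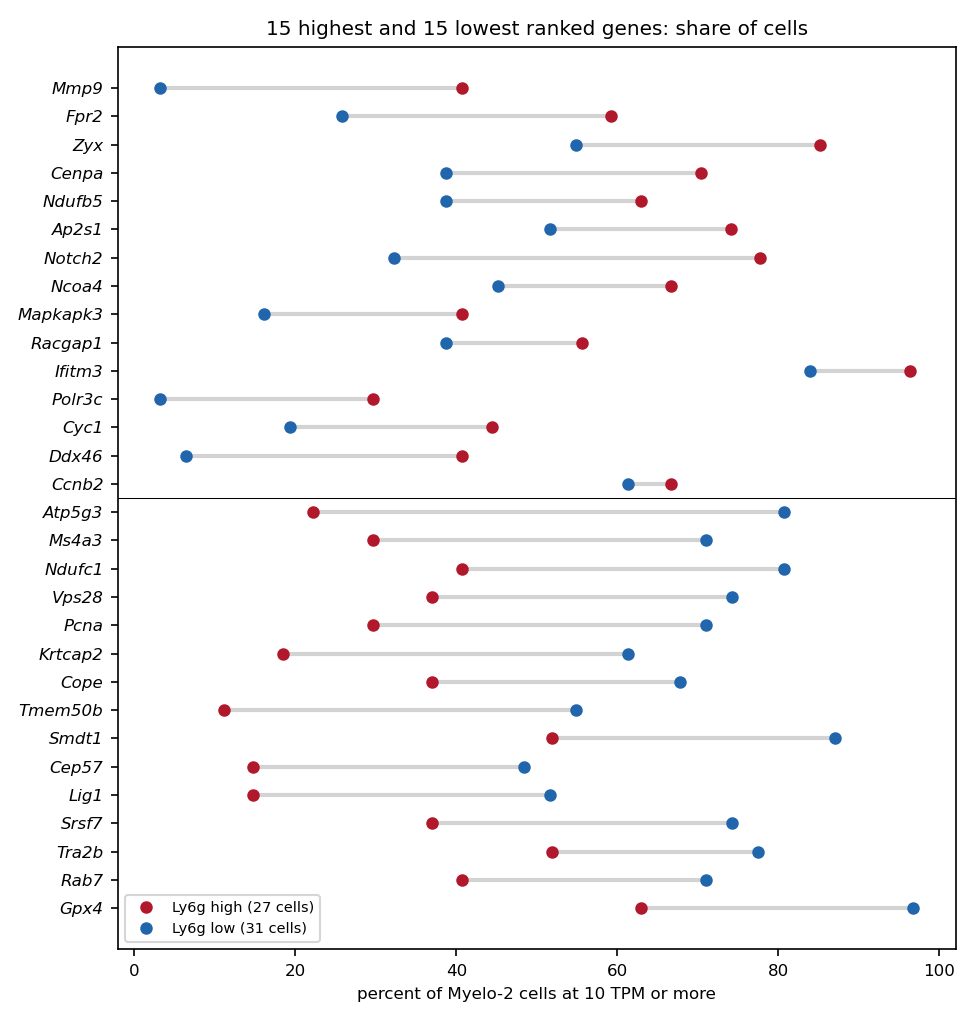
Percent of Myelo-2 cells with 10 TPM or more (horizontal axis) for the 15 genes ranked highest and the 15 ranked lowest by difference of mean log2(TPM + 1) (rows), in Ly6g high cells (red, 27 cells) and Ly6g low cells (blue, 31 cells). Mmp9 stands at 11 of 27 Ly6g high cells against 1 of 31 Ly6g low cells, Ms4a3 at 8 against 22 and Lig1 at 4 against 16.

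Of 15 measured regulators of granulocyte fate 2 were at least 2-fold higher (13.3%, beside 13.1% of all measured genes) and 2 lower (13.3%, beside 19.8%), with a median log2 ratio of 0.04. Cebpe, the factor required for specific granules, had lowest 1.17, median 80.9 and highest 403 TPM in Ly6g high cells, against lowest 0, median 37.2 and highest 606 TPM in Ly6g low cells (log2 ratio 0.37), so the gates overlapped. Cebpa, needed to enter the lineage, was listed at 0 in every Ly6g high cell and reached 10 TPM in 2 Ly6g low cells. Gfi1, a repressor of monocyte genes, was at 10 TPM in 5 of 27 Ly6g high cells, against 1 of 31 Ly6g low cells, and 72.1% of its Ly6g high sum came from 1 cell. Spi1, which encodes PU.1, had a log2 ratio of 1.02 but a difference of mean log2(TPM + 1) of -0.07. Mxd1, a MYC antagonist that accumulates as myeloid cells mature, averaged 79.6 TPM in Ly6g high cells, against 26 TPM in Ly6g low cells. Runx1, an early haematopoietic factor, averaged 7.94 TPM in Ly6g high cells, against 20.1 TPM in Ly6g low cells. Kit, used for the bead enrichment, reached 10 TPM in 3 of 27 Ly6g high cells, against 6 of 31 Ly6g low cells. The 29 measured surface receptor genes had a median log2 ratio of 0.13, with Pirb, an inhibitory receptor of myeloid cells, at 1.07 and the integrin chains Itgal and Itgb1 at -2.29 and -1.74.

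The remaining lists are given by their medians, beside -0.13 over all measured genes. None of 36 actin genes differed 2-fold (median log2 ratio 0.08), and the medians were 0.04 for 14 glycolysis genes, 0.01 for 32 proteasome genes and -0.08 for 20 histone and chromatin genes. The 4 measured progenitor genes and 5 ribosome assembly genes had medians of 0.16 and -0.22. The medians were 0.54 for 7 genes of the Ly6 family, which holds Ly6g itself, and 0.77 for 3 monocyte genes. Immediate early genes, which handling can raise, had a median of -0.83 over 11 genes, but 0.01 without Ly6g low cells 8 and 10. With all cells kept, 4 were at least 2-fold lower (36.4%, beside 19.8% of all measured genes) and none higher (beside 13.1%).

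Set beside Ly6g high cells, the 14 Myelo-2 cells of the CD11b+ gate, which had a median of 2259 genes, held more Pcna and Ms4a3. Pcna averaged 162 TPM in Ly6g high cells, against 655 TPM in the CD11b+ gate, where 13 of 14 cells reached 10 TPM. Ms4a3 averaged 184 TPM in Ly6g high cells, against 625 TPM there. Cenpa averaged 199 TPM in Ly6g high cells, against 28.6 TPM there, and Fpr2 331 TPM, against 159 TPM there. Libraries of the CD11b+ gate carry another name prefix than those of the Ly6g gates. What the prefix stands for is not given, and no difference from the CD11b+ gate was tested.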

How the data were processed

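Single cells of wild-type C57BL/6 mouse marrow were sorted, captured on the Fluidigm C1 system, converted to cDNA with the SMARTer kit and sequenced after Nextera XT library preparation, per the labels' protocols. The deposited table holds log2(TPM + 1) for 23946 genes in 127 cells. This unit was read from the values: the back-transformed columns summed to 999633 to 1005383 TPM. Bowtie2, RSEM and the build mm9 are named in the submitters' processing notes; versions and annotation are not given in the sources used here, nor is the method behind the deposited class names. TPM keeps no read depth, so genes detected per cell stand for it. No doublet caller was run.

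From these values, means, log2 ratios, differences of mean log2(TPM + 1), shares of cells and list medians were computed with Python 3.11.15, pandas 2.3.3 and scipy 1.17.1. The log2 ratio step alone was tested, on cells redrawn from the Ly6g low gate with planted fold changes. With 1 sample a gate there was no test and no p-value. Members and gene lists were chosen with earlier results of these data known. Named genes were 20 fixed genes, the 15 highest and 15 lowest by difference of mean log2(TPM + 1) among genes under the stricter size rule (without Ly6g, Itgam, predicted loci, genes of ribosomal proteins, of small RNAs and of the mitochondrial genome), and up to 4 members of each list in the direction of its median. Other genes named, such as Fcnb, Mmp8, Cxcr2, Mcm4, Fen1, Rrm2, Uhrf1 and Top2a, and the cells given by number, were chosen after their values were seen. Alternatives changed the cells used, the scaling, the filter, the pseudocount and how means were taken. Promoters are of another build than the files, and their coordinates belong to that build only. No 2 columns were identical.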

Additional observations from a re-analysis of the deposited data

How the results depend on the processing

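No paired analysis was possible because Ly6g high cells are numbered 44 to 94 and Ly6g low cells 1 to 43, and the numbers name single cells. Most values moved little: of the list medians 318 stayed within 0.585 of the value given (a 1.5-fold change), 23 moved and 4 reversed, and of the named genes' log2 ratios 579 stayed, 155 moved and 6 reversed. A change of sign counted as reversed only where the value given was at least 0.585 in size for a list, or 1 for a gene. Smaller values that changed sign are among those that moved or stayed. The mitosis median, 0.42, moved to -0.31 over all cells and stayed by this rule at -0.15 over the Myelo classes. The cause was not tested for any of them. Genes at least 2-fold higher, 511, numbered 287 with a pseudocount of 10 TPM, 1862 without a filter, 278 with detection at 10 TPM, 126 from means of log2(TPM + 1), 317 over all cells of both gates and 329 over the 4 Myelo classes. Genes at least 2-fold lower, 776, numbered 446, 2606 and 488 under the first 3 of these settings. These counts have different totals. Measured genes numbered 3911 with a pseudocount of 10 TPM and from means of log2(TPM + 1), as in the main setting. They numbered 11460 without a filter, 2688 with detection at 10 TPM, 3983 over all cells of both gates and 3722 over the Myelo classes. List medians under these last 4 settings can likewise cover other members.

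The primary granule median, -1.80, was -2.74 without a filter, -1.19 with detection at 10 TPM, -2.58 with trimmed means, -3.02 without the highest cell of each gate, -0.82 in cells with 1500 to 3000 genes, -3.27 without the 25% of cells with fewest genes, -3.05 over all cells, -3.30 over the Myelo classes and -0.66 without the 5 Ly6g low cells over 3000 genes. The late neutrophil median, 0.98, was -0.20 without a filter, 0.08 from means of log2(TPM + 1) and 0.37 without those 25%. DNA replication was at -1.69 with trimmed means and -1.52 over the Myelo classes, mitosis at -0.31 over all cells, progenitor at -0.70 and the respiratory list at -0.88 from means of log2(TPM + 1). Ribosome assembly was at 0.67 in cells with 1500 to 3000 genes, -1.02 over all cells and -1.08 over the Myelo classes. Immediate early genes were at -0.15 after rescaling without granule and S100 genes, 0.02 in cells with 1500 to 3000 genes, -0.21 over the Myelo classes, 0.10 without the 5 cells and 0.01 without cells 8 and 10. The monocyte median was 0.17 without a filter and 0.12 from means of log2(TPM + 1). The granule, late neutrophil and S100 lists have no rescaled value. The share of Ly6g low cells with mitosis genes and few replication genes was 0% at a threshold of 5 genes. Mpo was at 0.20 in cells with 1500 to 3000 genes and 0.24 without the 5 cells, Spi1 at -0.07 from means of log2(TPM + 1) and -0.02 with trimmed means, and Mapkapk3 at -0.31 over all cells and -0.37 over the Myelo classes. Repeating the stricter rule and the list genes in these cell sets, leaving out cells 8 and 10, cell 36, cell 82 or the 5 cells, and the thresholds of mitosis and replication genes, were settings chosen after seeing the data.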
